A study of Mus musculus with 6 samples.

Results

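Imprinted genes of the mouse were examined in muscle from which Igf2, itself imprinted, was labelled as deleted. The 40 genes are known imprinted genes other than Igf2, Igf2r and H19, taken by gene name from the 54532 genes of the deposited table, and each name matched 1 row. The series compared RNA-seq libraries of muscle from control mice (Mck-Cre-; Igf2f/f, n = 3) and from Igf2 cKO mice (Mck-Cre+; Igf2f/f, n = 3). All mice had a C57BL/6 background per the labels, the controls were littermates without Cre, and loxP sites flanked exon 2 on both Igf2 alleles in both groups. Cre was driven by the muscle creatine kinase promoter, so cells other than muscle fibres keep Igf2. The labels do not give the muscle, age or sex. Values of single libraries are given in the order of the replicate numbers 1, 2 and 3 within a genotype. Total counts per library lay between 16184371 and 17905203, and the fibre markers Acta1 (33040 to 40710 CPM, counts scaled to a common library size) and Ckm (10690 to 13500 CPM) were abundant in all 6 libraries. Igf2 itself had 39 to 60 counts in controls and 33 to 42 in Igf2 cKO muscle, and these counts do not separate the floxed exon.

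An imprinted gene is transcribed wholly or mainly from the copy of 1 parent, in all tissues or in some. In many cases DNA methylation laid down in the egg or sperm marks a control region that silences the other copy. Most imprinted genes lie in clusters, each under 1 control region, and many clusters hold long noncoding RNAs beside genes for fetal growth. Many are abundant in the fetus and placenta and are turned down after birth, and several stay active in adult muscle stem cells, connective tissue or fat. The deposited counts are summed over both copies, so they show the level of a gene and not which parental copy was read. The strand setting is not stated, so the counts of overlapping genes may share reads.

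Of the 40 genes, 36 passed the filter on low counts, and 0 of the 36 differed between the genotypes at an adjusted p under 0.05 by edgeR with Benjamini-Hochberg adjustment over 14867 genes. The same threshold took 0.249% of all genes tested. DESeq2 and limma-voom also called 0 members, where they took 1.33% and 0.229% of all genes. At an unadjusted p under 0.05 there were 2 members, Asb4 and Impact, where 9.93% of all genes passed. The members had a median log2 fold change (Igf2 cKO over control) of 0.06, against 0.004 over all genes, with 22 above 0 and 14 below, and 50.8% of all genes lay above 0. For 29 of the 36 members the 95% interval of the fold change lay within 2-fold in either direction, and for 17 it lay within 1.5-fold. Nnat was the 1 member with an absolute log2 fold change over 1, which 2.02% of all genes exceeded. The 7 members with wider intervals were Mirg, Begain, Dio3, Kcnq1ot1, Slc22a18, Peg10 and Nnat. Libraries of 1 genotype also differed from each other, and control replicate 1 was the highest of the 6 libraries for 15 of the 36 members, and control replicate 3 was the lowest for 17.

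**Figure D1:**
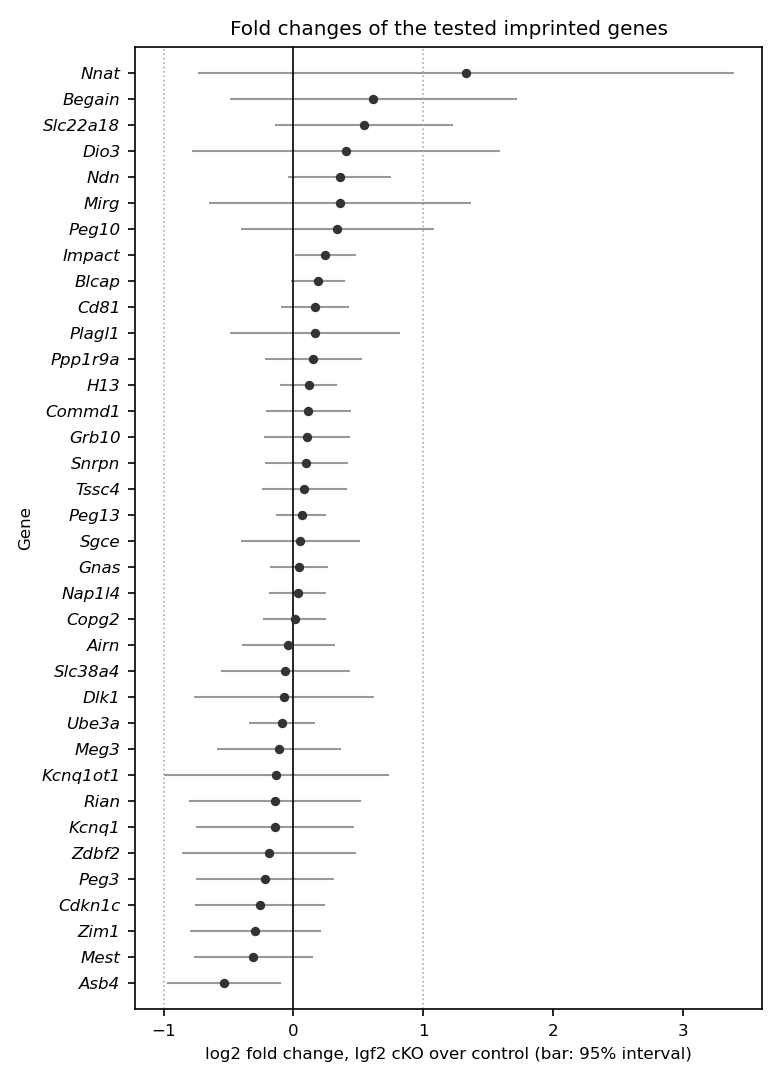
Log2 fold changes of the 36 tested imprinted genes (x axis, Igf2 cKO over control, edgeR), with points for the estimate, bars for the 95% interval and dotted lines at a 2-fold change. Nnat has the widest interval (-0.73 to 3.39), and the intervals of 2 genes, Asb4 and Impact, lie wholly on 1 side of 0.

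Promoter sequences are shown for 6 members whose values are given in full below. Meg3, Mest, Plagl1, Dlk1 and Peg3 were highest in control replicate 1, and Nnat was highest in Igf2 cKO replicate 3. The first 4 sequences hold the motif that was searched for, and those of Dlk1 and Peg3 do not. Where a gene had several transcript starts, the run with the most matches is shown. The printed runs were thus chosen by the motif and do not stand for all starts of a gene. Each run covers 250 bases before to 50 bases after a transcript start in RefSeq, build GRCm38.p6, and capitals mark TGCCGC or its reverse complement GCGGCA. This is the hexamer that ZFP57, a zinc finger protein that keeps imprinting control regions methylated, binds when it carries methylation.
Meg3, chr12:109540746-109541045, plus strand: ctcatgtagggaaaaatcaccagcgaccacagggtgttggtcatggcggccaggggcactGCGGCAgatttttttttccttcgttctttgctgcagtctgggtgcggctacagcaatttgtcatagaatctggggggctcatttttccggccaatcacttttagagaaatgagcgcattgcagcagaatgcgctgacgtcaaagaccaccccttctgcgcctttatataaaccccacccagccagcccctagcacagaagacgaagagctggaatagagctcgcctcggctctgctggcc
Mest, chr6:30737800-30738099, plus strand: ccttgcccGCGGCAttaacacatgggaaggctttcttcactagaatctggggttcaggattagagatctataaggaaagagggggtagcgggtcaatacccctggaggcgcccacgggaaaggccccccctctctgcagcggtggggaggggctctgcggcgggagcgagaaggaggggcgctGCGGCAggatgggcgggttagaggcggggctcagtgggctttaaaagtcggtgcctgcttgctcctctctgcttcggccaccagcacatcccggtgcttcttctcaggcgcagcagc
Plagl1, chr10:13090582-13090881, plus strand: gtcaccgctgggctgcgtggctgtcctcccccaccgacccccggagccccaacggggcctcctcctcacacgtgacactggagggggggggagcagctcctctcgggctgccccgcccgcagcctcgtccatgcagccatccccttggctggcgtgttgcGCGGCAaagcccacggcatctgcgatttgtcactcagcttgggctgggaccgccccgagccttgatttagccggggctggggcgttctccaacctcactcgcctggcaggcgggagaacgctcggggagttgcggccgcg
Nnat, chr2:157559828-157560127, plus strand: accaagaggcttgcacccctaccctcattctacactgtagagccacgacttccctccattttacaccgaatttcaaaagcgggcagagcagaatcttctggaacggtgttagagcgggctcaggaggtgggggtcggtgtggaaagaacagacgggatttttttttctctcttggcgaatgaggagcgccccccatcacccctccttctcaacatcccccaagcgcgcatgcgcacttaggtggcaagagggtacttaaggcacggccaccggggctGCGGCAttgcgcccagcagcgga
Dlk1, chr12:109452573-109452872, plus strand: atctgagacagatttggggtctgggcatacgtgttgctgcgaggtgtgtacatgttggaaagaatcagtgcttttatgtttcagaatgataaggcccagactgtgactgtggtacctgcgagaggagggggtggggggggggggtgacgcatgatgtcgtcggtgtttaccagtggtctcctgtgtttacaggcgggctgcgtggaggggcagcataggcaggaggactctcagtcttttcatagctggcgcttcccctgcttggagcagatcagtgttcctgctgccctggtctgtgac
Peg3, chr7:6730370-6730669, minus strand: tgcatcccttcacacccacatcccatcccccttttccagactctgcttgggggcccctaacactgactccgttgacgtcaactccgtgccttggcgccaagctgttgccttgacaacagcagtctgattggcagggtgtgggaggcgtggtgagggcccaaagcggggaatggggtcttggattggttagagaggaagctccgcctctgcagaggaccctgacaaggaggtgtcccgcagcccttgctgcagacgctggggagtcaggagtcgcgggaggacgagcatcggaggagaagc
The Mest window holds 2 matches, those of Meg3, Plagl1 and Nnat 1 each, and those of Dlk1 and Peg3 none. Of the 15 members highest in control replicate 1, 13 had a window and 7 of these held a match, the others being Dlk1, Rian, Mirg, Peg3, Kcnq1ot1 and Gnas. Among the other tested members 16 had a window and 3 of these held a match. A link between the motif and the levels was not tested. RefSeq gave a window for 32 of the 40 members, and 10 of the 32 (31.2%) held a match in at least 1 window, against 13.1% of all 27025 gene symbols. Members had more windows per gene, and counted by window a match was found in 21.2% of 52 member windows and 11.6% of all 32851. Member windows also held more CpG pairs, with a median of 17 against 7 over all windows, and the hexamer contains a CpG. No methylation was measured in these samples.

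Levels per length, taken as the authors' FPKM (fragments scaled by gene length and library size), ranged widely among the members. Cd81, a tetraspanin of the cell surface, had the highest mean FPKM over the 6 libraries at 67.1, followed by Nap1l4, a histone chaperone of the nucleosome assembly family, at 59.1. Cdkn1c, which encodes the cell cycle inhibitor p57, stood at 32.0 FPKM and Slc38a4, a transporter of neutral amino acids, at 31.8 FPKM. The FPKM ranges of Cd81 (57.4 to 78.5) and Nap1l4 (56.1 to 62.6) overlapped, and so did those of Cdkn1c (23.2 to 46.9) and Slc38a4 (22.2 to 40.1). The next 6 were Blcap (14.8), Peg13 (11.8), Grb10 (11.3), Gnas (10.4), Snrpn (8.13) and H13 (7.73 FPKM). At the other end, Magel2, a MAGE family gene of the Prader-Willi region, had 0 counts in all 6 libraries, which allows at most 0.162 to 0.196 CPM per library (3 counts, counting error only). The other members below the filter were Phlda2 with 0 to 2 counts, Rtl1 with 0 to 11 and Usp29 with 0 to 19.

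**Figure D2:**
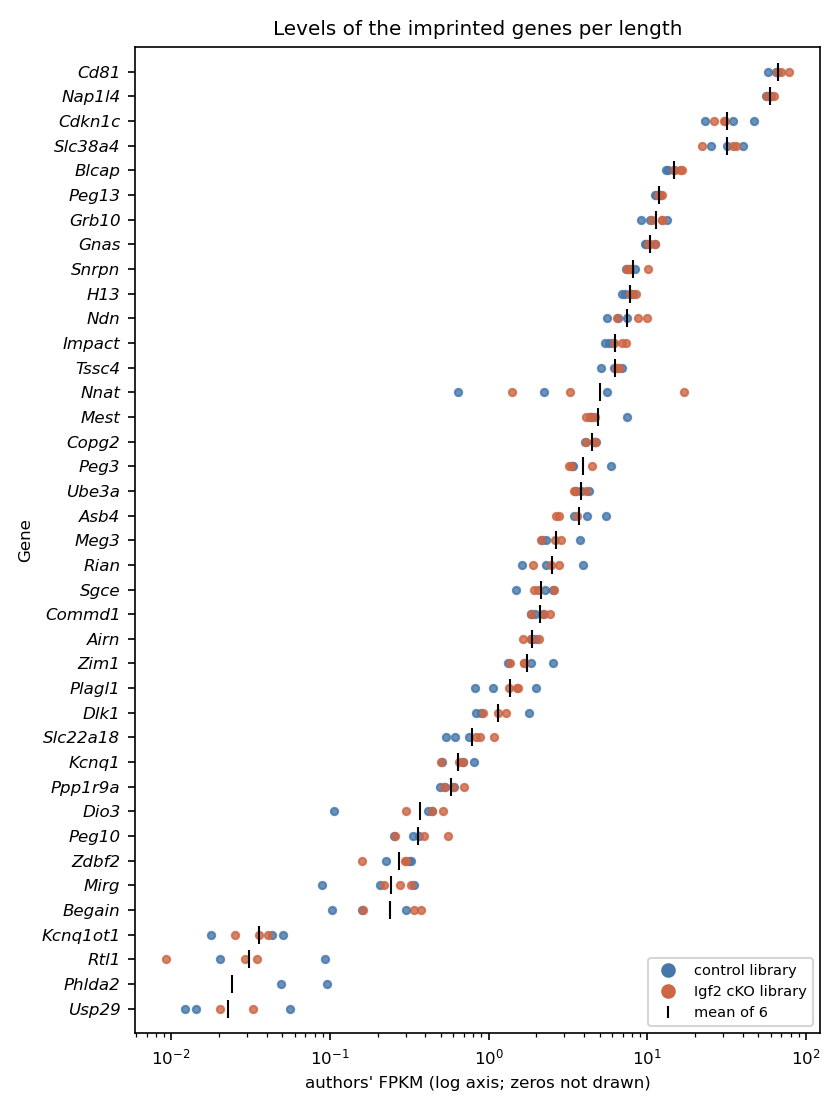
The authors' FPKM (x axis, log scale) of 39 imprinted genes, with a point per library, blue for control and orange for Igf2 cKO, and a bar at the mean of the 6 libraries. Magel2, at 0 in every library, is not drawn, and the points of Nnat run from 0.64 to 17.0 FPKM.

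The Dlk1-Dio3 domain of chromosome 12 holds Dlk1, Rtl1 and Dio3, read from the paternal copy, and a row of noncoding RNAs read from the maternal copy, Meg3, Rian and Mirg. Rian carries small nucleolar RNAs and Mirg microRNAs. Meg3 (ENSMUSG00000021268, 109541001 to 109571726, plus strand, GRCm38) was at 68.2, 41.8 and 39.8 CPM in the controls and at 52.2, 47.6 and 38.9 CPM in Igf2 cKO muscle. Control replicate 1 was the highest library and Igf2 cKO replicate 3 the lowest, and the groups overlapped. The means were 49.9 ± 15.9 and 46.2 ± 6.76 CPM (SD, n = 3 each), and edgeR gave -0.11 ± 0.21 on the log2 scale (SE, adjusted p = 0.916).

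Rian (109603940 to 109661716) was at 72.6, 42.2 and 29.8 CPM in the controls and at 51.1, 45.5 and 34.7 CPM in Igf2 cKO muscle. Mirg (109729764 to 109749460) was at 2.49, 1.51 and 0.654 CPM in controls and at 2.40, 2.04 and 1.60 CPM in Igf2 cKO muscle. In both genes control replicate 1 was the highest library and control replicate 3 the lowest, so the Igf2 cKO values lay inside the control range. Their log2 fold changes were -0.14 ± 0.29 (SE, adjusted p = 0.924) and 0.36 ± 0.44 (SE, adjusted p = 0.856) by edgeR.

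The levels of these RNAs moved together from library to library. Whether they did so more than with genes outside the domain was not tested. Over the 6 libraries the log2 CPM of Meg3 and Rian had a Pearson r of 0.96 (exact permutation p = 0.00556, adjusted over 6 pairs 0.0167) and a Spearman rho of 0.94 (exact permutation p = 0.0167, adjusted 0.0501). Rian and Mirg had an r of 0.84 (exact permutation p = 0.00556, adjusted 0.0167) and a rho of 0.94 (p = 0.0167, adjusted 0.0501). Meg3 and Mirg had an r of 0.71 (exact permutation p = 0.0222, adjusted 0.0444) and a rho of 0.83 (p = 0.0583, adjusted 0.117). Without the 2 libraries farthest from the median, over 4 libraries, r was 0.81 for Meg3 and Rian, 0.82 for Rian and Mirg and 0.59 for Meg3 and Mirg. The ratio of Rian to Meg3 FPKM lay between 0.885 and 1.06 in 5 libraries and at 0.744 in control replicate 3. Mirg stood at 0.0895 to 0.114 of the Meg3 FPKM in the same 5 libraries and at 0.0408 in control replicate 3.

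Dlk1, a membrane protein related to Notch ligands that is known from muscle regeneration and preadipocytes, was at 10.2, 5.09 and 4.71 CPM in the controls. In Igf2 cKO muscle it was at 7.36, 5.26 and 6.50 CPM. Control replicate 1 was again the highest, and the log2 fold change was -0.07 ± 0.31 (SE, adjusted p = 0.968 by edgeR). Without control replicate 1 the log2 fold changes turned positive for Dlk1 (0.38), Meg3 (0.18) and Rian (0.28), and without Igf2 cKO replicate 2 that of Dlk1 was 0.05, none of them called. That of Rian was 0.001 when Igf2 cKO replicate 3 was left out. Meg3 and Dlk1 had an r of 0.85 (exact permutation p = 0.0556, adjusted 0.0834) and a rho of 0.66 (p = 0.175, adjusted 0.21), and r was -0.26 without control replicate 1 and Igf2 cKO replicate 1, so this relation rested on those libraries.

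The remaining genes of the domain were near the limit of detection. Begain, a synaptic scaffold gene, had 13, 24 and 7 counts in the controls and 27, 27 and 12 in Igf2 cKO muscle (log2 fold change 0.62 ± 0.49, SE, adjusted p = 0.746 by edgeR). Its groups overlapped. Dio3, the deiodinase that inactivates thyroid hormone, had 4 to 16 counts in controls and 10 to 19 in Igf2 cKO muscle, and Rtl1, derived from a retrotransposon, had 11, 0 and 2 counts in controls and 4, 3 and 1 in Igf2 cKO muscle.

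The pattern of a high control replicate 1 extended beyond chromosome 12. Mest, which encodes a hydrolase-like protein made by growing adipocytes, was at 29.5 CPM in control replicate 1 and between 16.2 and 18.7 CPM in the other 5 libraries. Peg3, a zinc finger gene expressed in interstitial and satellite cells of muscle, was at 79.8 CPM there and between 42.9 and 59.5 CPM elsewhere. Plagl1, a zinc finger transcription factor that regulates other imprinted genes, was at 15.6, 8.45 and 6.47 CPM in the controls and at 11.9, 10.5 and 11.9 CPM in Igf2 cKO muscle. These 3 genes were singled out after their values were seen. Their log2 fold changes of -0.31 (Mest), -0.22 (Peg3) and 0.17 (Plagl1) had adjusted p between 0.674 and 0.906 by edgeR. Without control replicate 1 they were -0.012 (Mest), 0.11 (Peg3) and 0.61 (Plagl1), and that of Plagl1 was -0.068 without control replicate 3, none of them called.

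**Figure D3:**
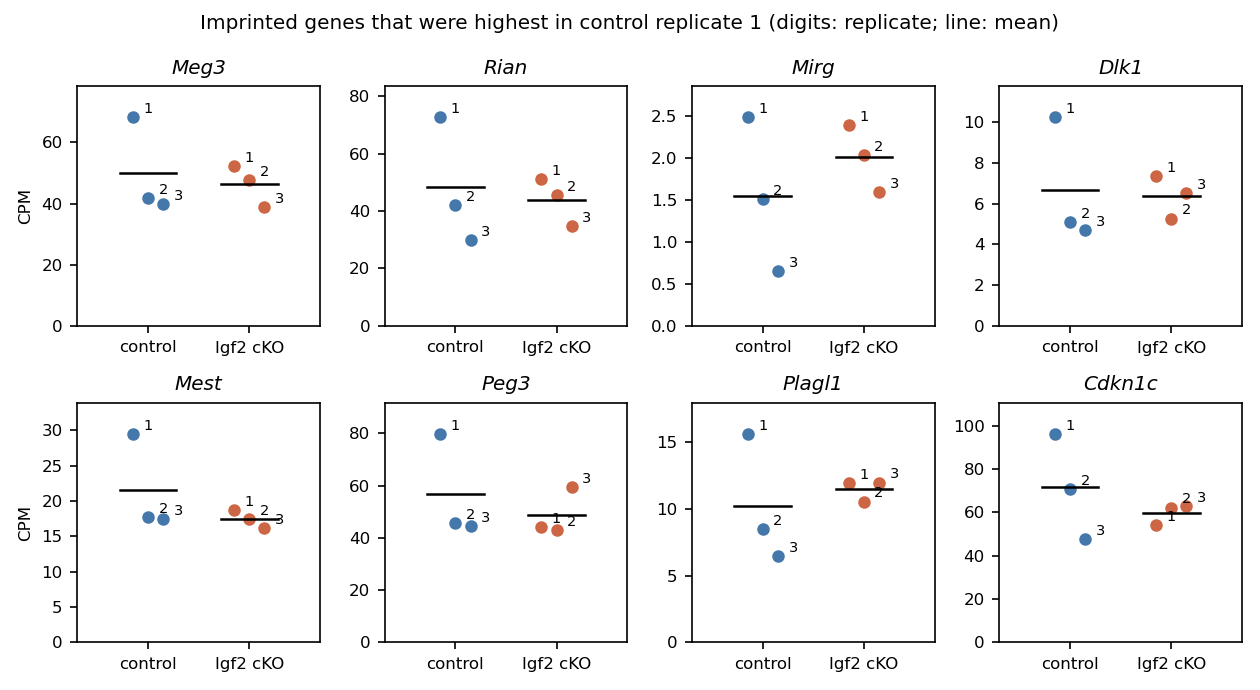
CPM (y axis, from 0) of 8 imprinted genes in the 3 control (blue) and 3 Igf2 cKO (orange) libraries, with the replicate number beside each point and a line at the group mean. The 8 genes were drawn because control replicate 1 was their highest library, as it was for 15 of the 36 tested members. Its lead in each panel therefore follows from the choice of genes. Mest stood at 29.5 CPM there against at most 18.7 CPM elsewhere.

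Control replicate 1 was the highest library for 41.7% of the tested members and for 18.2% of all genes tested. Control replicate 3 was the lowest for 47.2% of the members and for 20.1% of all genes. By the authors' FPKM the counts were 14 and 17 of 36. With CPM scaled by column totals alone control replicate 3 was the lowest for 24 members, and for 33.1% of all genes. Connective tissue markers moved in the same libraries. Of 8 markers of fibro-adipogenic cells, the mesenchymal cells between the fibres, 6 were highest in control replicate 1 and 6 lowest in control replicate 3, and none was at 0. Their summed level was 8267, 6583 and 3662 CPM in the controls and 6395, 5292 and 4418 CPM in Igf2 cKO muscle. Their part in the levels of the imprinted genes was not tested. The 8 markers of satellite cells and myoblasts summed to 140, 117 and 106 CPM in controls and to 132, 120 and 148 CPM in Igf2 cKO muscle. Summed markers of macrophages and leukocytes (284 CPM) and of adipocytes (494 CPM) were also lowest in control replicate 3. Muscle fibre markers were highest in that library (130900 CPM). The sums for endothelial cells, smooth muscle and pericytes, Schwann cells and erythroid cells were lowest in other libraries. In bulk muscle fewer cells of a type and less RNA per cell cannot be told apart.

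**Figure D4:**
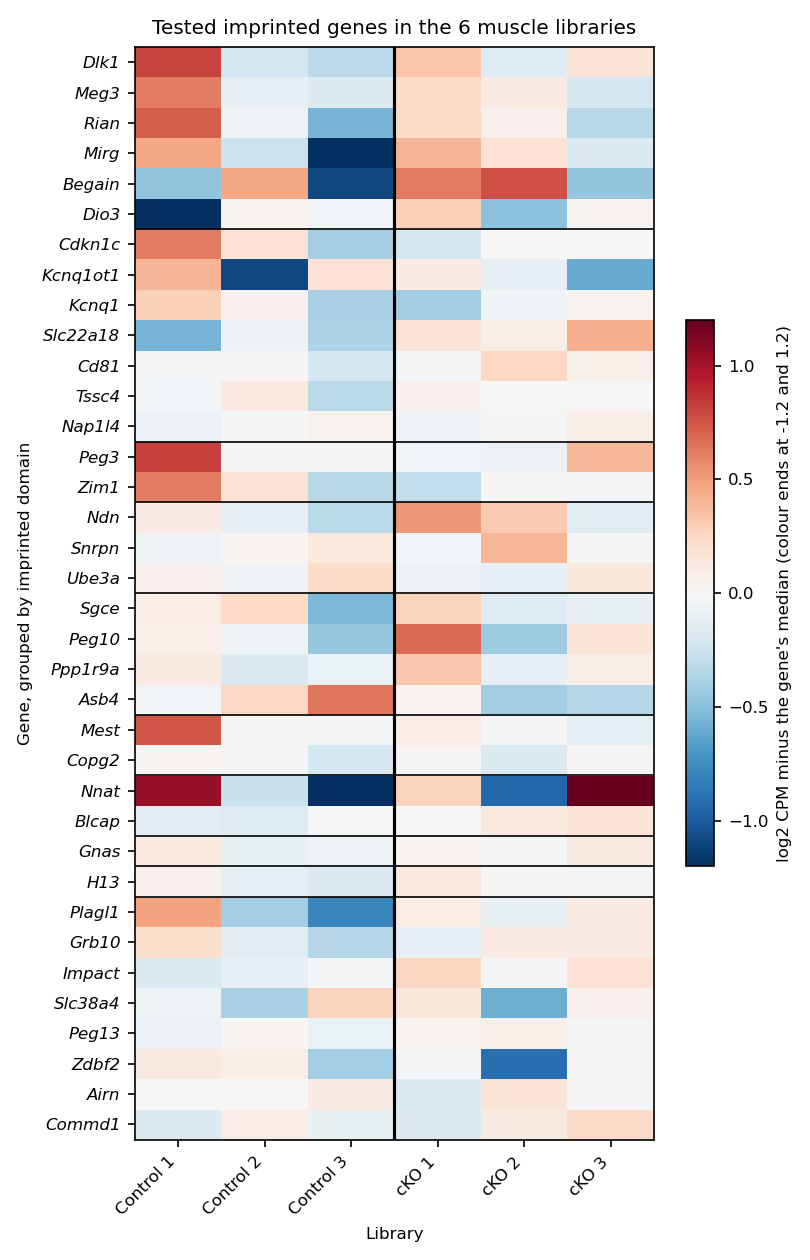
Level of the 36 tested imprinted genes (rows, with lines between domains) in the 6 libraries (columns), as log2 CPM minus the median of the gene, red for higher and blue for lower. The column of control replicate 1 holds the highest value of 15 genes and the column of control replicate 3 the lowest value of 17.

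The Kcnq1 domain lies on chromosome 7 within 386 to 847 kb of Igf2 and is under another control region, from which the noncoding RNA Kcnq1ot1 is read on the paternal copy. Its maternally read genes include Cdkn1c and Phlda2, which restrain growth, and Slc22a18, a solute carrier gene. Cdkn1c (143458339 to 143461050, minus strand, GRCm38) was at 96.3, 70.8 and 47.5 CPM in the controls. In Igf2 cKO muscle it was at 54.3, 62.2 and 63.0 CPM, inside the control range. The means were 71.5 ± 24.4 and 59.8 ± 4.82 CPM (SD, n = 3 each), and edgeR gave -0.26 ± 0.22 on the log2 scale (SE, adjusted p = 0.765), or 0.015 without control replicate 1.

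Slc22a18 was at 0.920, 1.29 and 1.05 CPM in the controls and at 1.51, 1.42 and 1.83 CPM in Igf2 cKO muscle. The groups did not overlap, on 16 to 31 counts per library, but the log2 fold change of 0.55 ± 0.30 (SE) missed the threshold (adjusted p = 0.612 by edgeR). In all, 3 of the 36 members had groups that did not overlap, all higher in Igf2 cKO muscle, where 15.5% of all genes tested had such groups, 7.83% higher and 7.67% lower. The others were Blcap and Impact.

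Cd81 and Nap1l4 varied less from library to library than Cdkn1c. Cd81 was at 188, 194 and 166 CPM in the controls and at 190, 227 and 200 CPM in Igf2 cKO muscle (log2 fold change 0.17, 95% interval -0.09 to 0.43). Nap1l4 was at 175, 182 and 189 CPM in controls and at 178, 186 and 194 CPM in Igf2 cKO muscle (0.03, 95% interval -0.18 to 0.25). For both genes the groups overlapped. Kcnq1ot1 was at 4.76, 1.68 and 4.05 CPM in controls and at 3.85, 3.34 and 2.37 CPM in Igf2 cKO muscle, with control replicate 2 the lowest. It lies inside Kcnq1 on the opposite strand, and as the strand setting is not stated, the counts of the pair may share reads. Its log2 fold change of -0.13 (adjusted p = 0.948 by edgeR) became 0.16 without control replicate 1, or 0.04 if Igf2 cKO replicate 3 was left out. Kcnq1, a potassium channel gene, and Tssc4 also overlapped between the groups, at -0.14 (0.021 without control replicate 1) and 0.08 (-0.025 without control replicate 3) on the log2 scale.

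Asb4 and Impact had the smallest p-values of the members, and neither survived the correction. Asb4 (chromosome 6, 5383386 to 5433022, plus strand, GRCm38), which encodes a substrate adaptor of a ubiquitin ligase and is read from the maternal copy, was at 13.7, 16.6 and 21.7 CPM in the controls. In Igf2 cKO muscle it was at 14.3, 10.5 and 11.0 CPM, and Igf2 cKO replicate 1 lay above control replicate 1. The means were 17.3 ± 4.02 and 11.9 ± 2.07 CPM (SD, n = 3 each), with a log2 fold change of -0.53 ± 0.19 (SE, unadjusted p = 0.0226 and adjusted p = 0.399 by edgeR). Over all genes 4.82% were lower at that unadjusted threshold. Without control replicate 3 the log2 fold change was -0.34, and over the alternatives the adjusted p ran from 0.142 to 0.649.

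Impact, which restrains the amino acid sensing kinase GCN2 and is read from the paternal copy, was at 18.78, 19.86 and 20.99 CPM in the controls. In Igf2 cKO muscle it was at 25.27, 21.41 and 23.94 CPM, each above the 3 controls. The means were 19.9 ± 1.10 and 23.5 ± 1.96 CPM (SD, n = 3 each), with a log2 fold change of 0.25 ± 0.10 (SE, unadjusted p = 0.0423 and adjusted p = 0.483 by edgeR), and the adjusted p ran from 0.373 to 0.764 over the alternatives. Higher at that unadjusted threshold were 5.11% of all genes. The other genes of the Asb4 cluster were Sgce, the epsilon-sarcoglycan of the dystrophin complex, at 0.05 on the log2 scale (-0.14 without control replicate 3), Peg10, derived from a retrotransposon, at 0.34 and Ppp1r9a, an actin-binding scaffold gene, at 0.15, all with overlapping groups. Sgce and Peg10 had an r of 0.74 (exact permutation p = 0.0722, adjusted 0.0866) and a rho of 0.77 (p = 0.103, adjusted 0.154), and r was 0.36 without control replicate 3 and Igf2 cKO replicate 1.

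Nnat had the largest log2 fold change of the 36 tested members, and it rested on 1 library. Nnat (neuronatin, a small proteolipid of the endoplasmic reticulum known from brain and adipose tissue; chromosome 2, 157560078 to 157562522, plus strand, GRCm38) was counted 190, 74 and 18 times in the controls, or at 10.3, 4.14 and 1.18 CPM. In Igf2 cKO muscle it was counted 108, 42 and 527 times, or at 6.02, 2.60 and 31.2 CPM. Igf2 cKO replicate 3 was above all others, and the other Igf2 cKO libraries lay inside the control range. The log2 fold change of 1.33 ± 0.90 (SE, 95% interval -0.73 to 3.39, adjusted p = 0.69 by edgeR) became -0.28 without Igf2 cKO replicate 3, 2.29 without control replicate 1, 0.89 without control replicate 3 and 0.79 with the replicate number as a block. The authors' deposited table sets single libraries of the same number against each other. For Nnat the authors' deposited table lists -0.77, -0.67 and 4.72 on the log2 scale for numbers 1, 2 and 3, with adjusted p of 1.0, 1.0 and 1.08e-14. At an adjusted p under 0.05 the authors' deposited table holds 0.716% of its genes for number 3, Nnat being the 1 member among them, and 0.346% for number 2, with 0 members.

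Some markers of adipocytes had the same order of libraries as Nnat. All 8 markers were highest in Igf2 cKO replicate 3 and none was at 0, and for 4 of them, Plin1, Lep, Cidec and Retn, the full order of the 6 libraries was that of Nnat. Lep, the hormone leptin of fat cells, was at 9.36, 4.36 and 0.458 CPM in the controls and at 5.69, 0.743 and 39.1 CPM in Igf2 cKO muscle. Plin1, which coats lipid droplets, was at 36.2, 25.2 and 7.52 CPM in controls and at 29.1, 9.59 and 93.1 CPM in Igf2 cKO muscle. Fabp4, a marker with another order, was at 449, 524 and 418 CPM in controls and at 377, 507 and 645 CPM in Igf2 cKO muscle. The summed level of the list was 494 to 868 CPM in controls and 627 to 1530 CPM in Igf2 cKO muscle. The part of fat cells in the Nnat values was not tested.

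**Figure D5:**
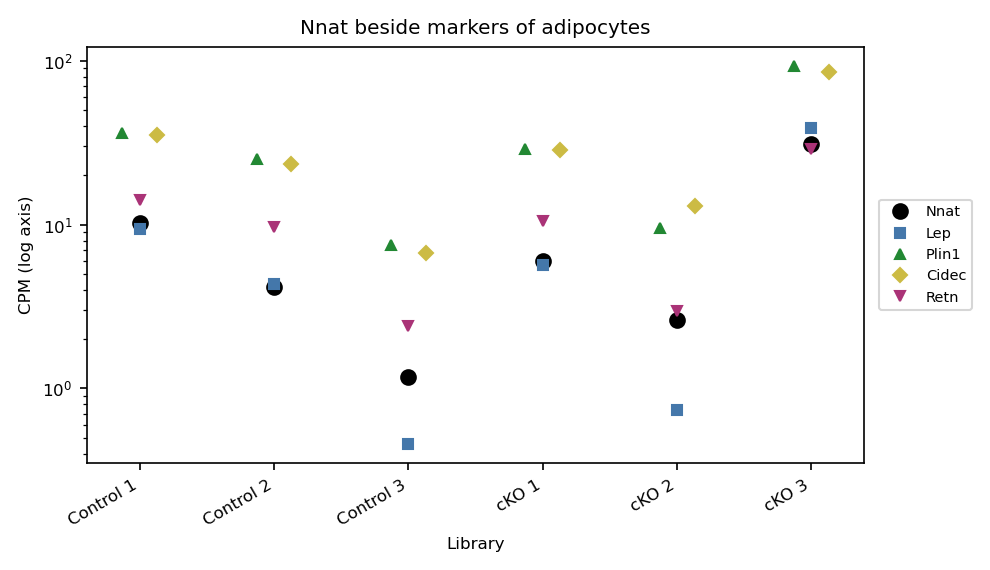
CPM (y axis, log scale) of Nnat (black circles) and of 4 adipocyte markers in the 6 libraries (x axis). Drawn are the 4 of 8 markers whose order of libraries was that of Nnat, so the shared order follows from the choice. All 5 genes are highest in Igf2 cKO replicate 3, where Nnat stands at 31.2 CPM, and lowest in control replicate 3, where it stands at 1.18 CPM.

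Nnat lies inside Blcap, a gene for a small membrane protein read from the opposite strand. Blcap varied far less, at 41.1, 40.5 and 44.8 CPM in the controls and 45.3, 48.8 and 50.2 CPM in Igf2 cKO muscle. Each Igf2 cKO value was above the 3 controls, and the log2 fold change was 0.19 ± 0.09 (SE, adjusted p = 0.539 by edgeR). The ratio of Nnat to Blcap FPKM ran from 0.0437 in control replicate 3 to 1.03 in Igf2 cKO replicate 3.

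In the Prader-Willi and Angelman region of chromosome 7, Ndn, a MAGE family gene that restrains growth of neurons, was at 27.8, 24.2 and 20.7 CPM in the controls. In Igf2 cKO muscle it was at 37.3, 32.3 and 23.8 CPM, with overlap at replicate 3 (log2 fold change 0.36 ± 0.17, SE, adjusted p = 0.548 by edgeR). Its adjusted p ran from 0.286 to 0.805 over the alternatives. Snrpn, a core protein gene of the spliceosome, was at 16.0, 17.0 and 18.1 CPM in controls and at 16.3, 22.0 and 16.4 CPM in Igf2 cKO muscle. Its log2 fold change of 0.10 became -0.056 without Igf2 cKO replicate 2. Ube3a, the ubiquitin ligase whose maternal copy is read in neurons, stood at -0.09 (95% interval -0.34 to 0.17). In the Peg3 domain Zim1, a zinc finger gene, was at 20.8 CPM in control replicate 1 and at 10.8 to 15.1 CPM elsewhere, with a log2 fold change of -0.29 (adjusted p = 0.736 by edgeR), or -0.026 without control replicate 1. Usp29, whose start faces that of Peg3, had 19, 4 and 4 counts in controls and 0, 6 and 10 in Igf2 cKO muscle. In the authors' deposited table Usp29 had an adjusted p of 0.0158 for number 1, where 0.448% of its genes were under 0.05, and it was below the count filter here.

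Grb10, an adaptor that dampens insulin and IGF1 receptor signalling, was at 121, 95.7 and 82.9 CPM in the controls and at 97.9, 112 and 112 CPM in Igf2 cKO muscle. The Igf2 cKO values lay inside the control range, and the log2 fold change of 0.11 ± 0.14 (SE, adjusted p = 0.874 by edgeR) became -0.009 without control replicate 3. Gnas, which encodes the stimulatory G protein subunit and several other imprinted transcripts summed here, was at 126, 109 and 111 CPM in controls and at 118, 114 and 125 CPM in Igf2 cKO muscle. The log2 fold change was 0.04 ± 0.10 (SE), and -0.004 without control replicate 2. Slc38a4 was at 137, 109 and 172 CPM in controls and at 157, 95.1 and 148 CPM in Igf2 cKO muscle. Both groups spread alike and overlapped, with a log2 fold change of -0.06 ± 0.22 (SE) that became 0.12 without control replicate 3, or 0.13 if Igf2 cKO replicate 2 was left out.

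Some members were even across all 6 libraries. Peg13, a noncoding RNA inside the Trappc9 gene, was at 53.7, 57.3 and 53.4 CPM in the controls and at 57.5, 58.7 and 55.5 CPM in Igf2 cKO muscle, so its highest value was 1.10 times its lowest. It lies on the same strand as Trappc9, and the counts of both genes may share reads. H13, a signal peptide peptidase gene, was at 72.6, 64.3 and 61.9 CPM in controls and at 76.0, 70.6 and 69.1 CPM in Igf2 cKO muscle (log2 fold change 0.12, 95% interval -0.10 to 0.34). Airn, the noncoding RNA that silences Igf2r in cis, was at 5.97 to 7.49 CPM over the 6 libraries (log2 fold change -0.04, 95% interval -0.40 to 0.32), and it overlaps Igf2r by 28354 bases on the opposite strand. Copg2, a coatomer subunit gene whose end overlaps that of Mest, was at 20.7 to 24.4 CPM (log2 fold change 0.01, 95% interval -0.23 to 0.25, and -0.004 with upper quartile factors), and its log2 CPM had an r of 0.39 with Mest (exact permutation p = 0.333, adjusted 0.333; rho 0.37, p = 0.497, adjusted 0.497), which was 0.81 over the 4 libraries left without control replicate 1 and Igf2 cKO replicate 3. Commd1, which regulates copper handling and NF-kB, was at 0.11 on the log2 scale. Zdbf2, a zinc finger gene at -0.19 on the log2 scale, was less even, with its highest library at 2.01 times its lowest. Both genes had overlapping groups. Over the 36 members the highest library was a median of 1.78 times the lowest, from 1.10 (Peg13) to 26.5 (Nnat).

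The members were also grouped by the parental copy that each is known to be read from. The copy read in these libraries was not measured. Of 16 tested members read mainly from the paternal copy, 9 had a log2 fold change above 0 and the median was 0.06. For 10 members read mainly from the maternal copy the median was -0.13, with 4 above 0, and for 10 whose imprint is weak or limited to some tissues it was 0.10, with 9 above 0. None of the 3 groups held a called gene, and differences between them were not tested.

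Among 32 tested imprinted genes outside the 40, 0 were called by edgeR and the median was -0.09, with 1 higher and 3 lower at an unadjusted p under 0.05. Over all genes 5.11% were higher and 4.82% lower at that unadjusted threshold. Groups that did not overlap were found for 1 higher and 6 lower of the 32, against 7.83% and 7.67% of all genes. Pon3, a lactonase gene in the Peg10 region, was at 34.2, 31.4 and 32.8 CPM in the controls and at 23.3, 24.4 and 24.0 CPM in Igf2 cKO muscle. The groups lay well apart, and edgeR gave -0.45 ± 0.09 on the log2 scale (SE, adjusted p = 0.112), short of the threshold that it passed by DESeq2 (adjusted p = 0.0418). Phactr2 was at -0.35 (adjusted p = 0.244). Of 20 tested factors that keep imprints or change DNA methylation, 0 were called (median -0.06), with 1 lower at an unadjusted p under 0.05. This was Tet3, an enzyme that oxidises methylated cytosine, at -0.24 (adjusted p = 0.408), and Smchd1 was at -0.19 (adjusted p = 0.594). The 12 genes of the Notch pathway, to which Dlk1 is related, had a median of -0.003 and 0 calls, with 1 higher and 1 lower at an unadjusted p under 0.05. Dll4, a Notch ligand of endothelium, was at 40.2, 48.4 and 41.3 CPM in controls and at 23.3, 23.9 and 31.1 CPM in Igf2 cKO muscle (-0.73 ± 0.14, SE, adjusted p = 0.109 by edgeR, 0.00267 by DESeq2 and 0.0015 by edgeR with no filter), and the ligand Jag2 was at 0.40 (adjusted p = 0.239). Of 5 tested genes of thyroid hormone handling, beside Dio3, the receptor gene Thrb was at -0.43 (adjusted p = 0.218) and Thra at -0.14 (adjusted p = 0.785), with 0 calls and a median of -0.12. At an unadjusted p under 0.05, 1 of these 5 was lower.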

How the data were processed

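Muscle RNA of control mice (3 libraries) and Igf2 cKO mice (3 libraries) was sequenced on an Illumina NovaSeq by a commercial service, per the labels. The sources used here name no aligner, counting tool, strand setting, build or annotation. Raw counts and the authors' FPKM are deposited for every gene and library, per the file headers. The authors also deposited log2 fold changes with p-values and adjusted p-values for 3 comparisons of single libraries, by a test that the sources do not name. A further 6 per-sample columns under other names were left out. All 40 members occur in GENCODE M21 (GRCm38), 39 with the same start and end, so coordinates are those of the table.

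The deposited counts went into the quasi-likelihood test of edgeR 4.0.16 (R 4.3.3) with a genotype term alone, TMM factors, filterByExpr and Benjamini-Hochberg adjustment over all genes. CPM use the TMM-scaled library sizes. Standard errors come from the F statistic and 95% intervals from its degrees of freedom. Correlations used log2 CPM (prior count 2) with two-sided exact permutation tests. No label says that the 6 libraries come from separate animals, so p-values measure the spread between these 6 libraries. DESeq2 1.42.0, limma-voom (limma 3.58.1), other size factors, other filters, the replicate number as a block, other thresholds, the authors' FPKM and leaving out each library were alternatives.

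The fit was tested on simulated data with known changes. The members and gene lists were chosen with earlier results of these data known. Values in every library are given for members with an unadjusted p under 0.05 or groups that do not overlap, the 10 with the highest mean FPKM, Meg3, Rian, Mirg and Dlk1, and members with a mean CPM of at least 1 in which 1 library was over 2 times, or under 0.5 times, the median of the others. From the other lists the called genes, or else the 2 with the smallest p, are named. Further members given in full were chosen after their values were seen.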

Additional observations from a re-analysis of the deposited data

How the results depend on the processing

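No member had an adjusted p under 0.05 with other size factors, other filters, DESeq2, limma-voom, the replicate block or any 1 library left out. In the main fit 0 members had an adjusted p under 0.1. There 0 passed the 2-fold rule of the series (an absolute log2 change over 1 at an unadjusted p under 0.05). Nnat passed that rule with no filter on low counts (1.33, unadjusted p = 0.013 by edgeR). It also did so without Igf2 cKO replicate 2 (1.81, unadjusted p = 0.046 by edgeR). The 2 members at an unadjusted p under 0.05 became 1 with upper quartile factors, where 9.87% of all genes passed, and 1 with DESeq2, where 5.16% did. With no filter on low counts they became 3, Asb4, Nnat and Ndn, where 7.88% of all genes passed. With a library left out there were 1 to 4, beside 7.25 to 10.6% of all genes. The causes were not tested. With a library left out, the log2 fold change changed sign for Dlk1 (-0.26 to 0.38), Meg3 (-0.25 to 0.18), Rian (-0.39 to 0.28), Cdkn1c (-0.48 to 0.015), Kcnq1ot1 (-0.48 to 0.16), Grb10 (-0.009 to 0.27), Snrpn (-0.056 to 0.17), Gnas (-0.004 to 0.11), Nnat (-0.28 to 2.29) and Slc38a4 (-0.22 to 0.13). The same runs on the other tested members, added after the data were seen, changed the sign for Dio3 (-0.025 to 0.71), Copg2 (-0.054 to 0.07), Plagl1 (-0.068 to 0.61), Kcnq1 (-0.30 to 0.021), Tssc4 (-0.025 to 0.18), Peg3 (-0.38 to 0.11), Sgce (-0.14 to 0.20), Zdbf2 (-0.33 to 0.052) and Airn (-0.12 to 0.041). Over all genes edgeR called 37, against 282 with no filter, 203 by DESeq2 and 8 to 68 with a library left out. Of the alternatives that kept all 6 libraries, upper quartile factors changed the sign of Copg2 (-0.004), and no other sign changed among the 36 tested members. With the replicate number as a block, 0 members were called and 2 had an unadjusted p under 0.05, Asb4 (0.0348) and Ndn (0.0106), while Impact was at 0.0585. Deviations of same-numbered libraries had correlations of 0.163, 0.058 and -0.043, and those of libraries with unlike numbers ran from -0.183 to 0.122. With 3 libraries per genotype these values cannot decide whether same-numbered libraries were paired, and the labels state no pairing. For 7 members the 95% interval reaches past a 2-fold difference, so these data do not bound them within 2-fold. Mirg, Begain, Dio3 and Slc22a18 have few counts, whereas the interval of Nnat comes with 18 to 527 counts.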
